A study of Homo sapiens with 9 samples.

Results

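Peaks wider than 1000 bp were described in the ChIRP-seq peak lists of K562 cells. Width was taken as the end minus the start of a peak, and it alone chose the members, here called wide peaks. The SRA lists held 149 wide peaks among 8658 distinct peaks (1.72%, 95% Wilson interval 1.47 to 2.02%), where a peak listed at identical coordinates in several SRA lists was counted once. LacZ lists 1 and 2 held 27 among 5292 distinct peaks (0.510%), and LacZ list 3 held 174 among its 290 peaks (60.0%). These 3 sets were kept apart, because most peaks of LacZ list 3 were wide.

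K562 is an established human erythroleukemia line, grown here in RPMI medium with fetal bovine serum and without any drug or genetic change. Crosslinked chromatin was captured with pooled biotinylated probes against the lncRNA SRA in 3 samples. Probes against LacZ, a bacterial transcript that human cells lack, were used in another 3 samples as the negative control, and 3 input samples received no probe and are not analysed here. All samples come from 1 cell line, and the lists hold positions and peak-caller scores but no read counts, so that read depth is unknown.

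In ChIRP, DNA that is crosslinked near an RNA is recovered with probes that pair with that RNA, and the recovered DNA is sequenced. A peak caller joins neighbouring enriched windows, so a wide peak is a stretch of near-continuous signal. The chromatin was sheared by the authors to fragments of up to 1000 bp, and each wide peak is therefore longer than the longest fragment intended. Shorter fragments were then selected by size for sequencing, so peaks below the threshold can also be longer than the fragments sequenced. Some parts of the genome are known for many copies in a cell. K562 cells carry the BCR-ABL1 fusion, in which a part of chromosome 22 is joined to a part of chromosome 9, and the fused segments are amplified. Mitochondrial DNA, ribosomal DNA, and the satellite repeats beside centromeres are also present in many copies, of which a reference genome shows only a few.

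SRA lists 1, 2, and 3 held 91, 94, and 114 wide peaks, which is 1.83, 1.90, and 2.20% of their peaks. LacZ lists 1 and 2 held 16 and 11, or 0.598 and 0.420%. The 3 SRA lists lay above both of these LacZ lists in number and in share. Because of their length, wide peaks accounted for 16.5, 17.1, and 19.4% of the bases covered in SRA lists 1, 2, and 3. They accounted for 5.49 and 3.88% in LacZ lists 1 and 2, and for 74.3% in LacZ list 3. Since width chose the peaks, these values are a description and were not tested. None of the 8658 distinct SRA peaks overlapped another distinct SRA peak (0 found), so wherever these lists met, their coordinates were identical. How this came about is not given in the sources used here, and the 3 lists are therefore not taken as separate measurements of a peak's width. The 3 narrowest wide SRA peaks were 1002, 1003, and 1007 bp, and the 3 peaks just below the threshold were 993, 996, and 998 bp. All 6 lay in the segments of chromosomes 22 and 9 described next, with mean scores from 41.5 to 72.3. The score is the peak caller's own measure of how unlikely a peak is without enrichment. It is higher for stronger peaks, starts at 40 in each list, and is averaged here over the SRA lists that hold a peak.

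The wide SRA peaks lay mostly in 2 segments of the genome. Chromosome 22 had 101 (67.8%, against 3.55% of all distinct SRA peaks), all between 19 and 24 Mb in hg19, where 248 of all distinct SRA peaks lay (2.86%). Chromosome 9 had 34 (22.8%, against 4.15%), of which 31 lay between bases 133000000 and 134000000. These are the segments around BCR and ABL1 that K562 cells are known to carry in extra copies, and their bounds were chosen from earlier results on these same lists. Together they held 132 of 149 wide SRA peaks, or 88.6% (95% Wilson interval 82.5 to 92.8%, counting error only). Of all distinct SRA peaks 3.42% lay there, and of the 8509 at or below 1000 bp 1.93%. Peaks that neighbour each other are not independent, so the interval is too narrow. Of the 8362 SRA peaks outside the segments, 17 were wide (0.203%), whereas 132 of 296 inside were wide (44.6%).

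**Figure D1:**
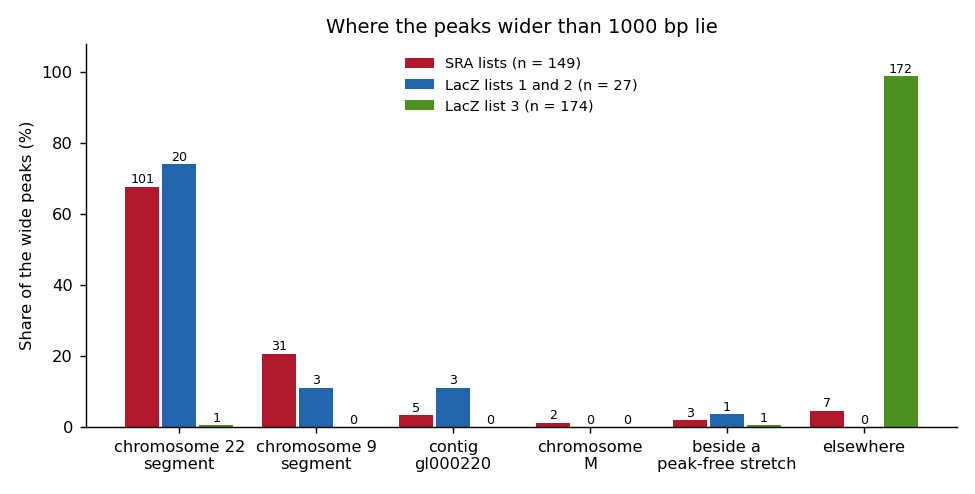
Share of the wide peaks (%) of each set in 6 kinds of place, with the number of peaks above each bar; red is the SRA lists (149 distinct peaks), blue LacZ lists 1 and 2 (27), and green LacZ list 3 (174). The chromosome 22 segment holds 101 wide SRA peaks and 20 of LacZ lists 1 and 2, while 172 of LacZ list 3 lie elsewhere.

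The wide LacZ peaks of lists 1 and 2 lay mostly in the same segments. In LacZ list 1, 15 of 16 wide peaks and in LacZ list 2, 8 of 11 were inside them. Taken as 1 set, 23 of 27 were inside (85.2%, 95% Wilson interval 67.5 to 94.1%), against 1.63% of all distinct peaks of these lists. The segments that held most of the wide peaks were thus the same in the SRA lists and in LacZ lists 1 and 2. In LacZ list 3, 1 of 174 wide peaks lay there (0.575%, against 0.345% of all its peaks). Of the peaks of LacZ lists 1 and 2 inside the segments 26.7% were wide, and outside them 0.0768%. Taken over all widths, peaks were longer inside the segments. The median width of SRA peaks was 897 bp inside (quartiles 536 and 1429 bp) and 156 bp outside. The median width in LacZ lists 1 and 2 was 612.5 bp inside and 154 bp outside. Of SRA peaks between 400 and 600 bp 38.0% lay in the segments, of those between 600 and 800 bp 72.2%, and of those between 800 and 1000 bp 89.7%, against 0.394% of peaks of up to 200 bp. The number of DNA copies in the segments was not measured in these lists, and its part in the width of SRA or LacZ peaks was not tested.

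On chromosome 22 the wide SRA peaks formed 1 run that started at base 19397926 and stopped at base 23630203, a span of 4232 kb in which neighbouring wide peaks were at most 697 kb apart. Apart from the window after 20 Mb, wide peaks became more frequent along the run. Between 19 and 20 Mb 9 of 41 SRA peaks were wide, and between 20 and 21 Mb 8 of 55 (14.5%). The share was 23 of 69 (33.3%) between 21 and 22 Mb and 25 of 45 (55.6%) between 22 and 23 Mb. Between 23 and 24 Mb, where all peaks start before base 23630203, 36 of 38 were wide (94.7%). The median width of all SRA peaks was 684, 569, 779, 1133, and 1938 bp in these 5 windows. The medians of LacZ lists 1 and 2 were 524.5, 498, 528, 616.5, and 1689 bp, so they too were largest in the window at the end of the run.

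In wide peaks and bases covered, though not in SRA peaks of any width, the end of the run was the densest part. In its last 200 kb all 25 SRA peaks were wide, with a median of 2399 bp, and they covered 33.3% of the sequence. In the last 100 kb 12 wide peaks covered 38.9%. Some adjoined each other closely, as the peak that ends at base 23596161 and the next, which starts at base 23596166. After base 23630203 no peak of any list followed for 895.5 kb, and the next, at base 24525695, was a single SRA peak. Before the run, by contrast, the preceding peak of any list ended 47.9 kb away. BCR is known to lie near this end of the amplified part of chromosome 22, but peaks were not assigned to nuclear genes, as the annotation at hand is of another build.

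**Figure D2:**
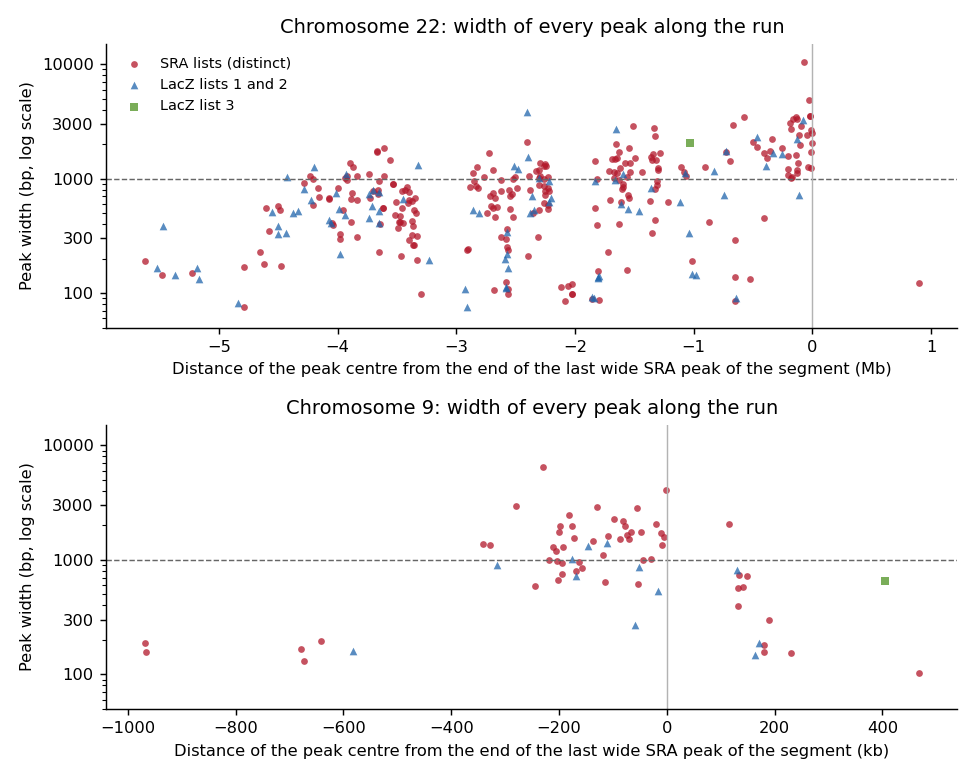
Width of every peak (bp, log scale) against the distance of its centre from the end of the last wide SRA peak of the segment, in Mb for chromosome 22 (top) and in kb for chromosome 9 (bottom), for distinct SRA peaks (red circles), LacZ lists 1 and 2 (blue triangles), and LacZ list 3 (green squares); the dashed line marks 1000 bp. On chromosome 22 all 25 SRA peaks of the last 200 kb lie above the line, and no peak follows for 895.5 kb.

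The widest SRA peak, of 10356 bp, lay in this dense end, from base 23553804 to 23564159. It was found in SRA list 3 alone, with a score of 48.75. Other wide peaks nearby were found in all 3 SRA lists. The peak from base 23596166 to 23601014 (4849 bp) scored 67.72, 47.82, and 59.7 in SRA lists 1, 2, and 3. The peak from base 23610212 to 23613758 (3547 bp) scored 93.64, 92.64, and 97.5, and with a mean of 94.6 it was the highest of the 101 in this segment. The median score of the 101 was 52.3, so the widest of them scored below most of the others.

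On chromosome 9 the run was shorter and more compact. It spanned 341 kb, from base 133657720 to 133998851, and 31 of the 43 SRA peaks within it were wide (72.1%). Wide peaks covered 18.2% of this span, against 4.22% of the span on chromosome 22. The preceding peak of any list lay 241 kb before the run. Another wide peak, from base 134112659 to 134114714, lay 114 kb behind it, outside the bounds used here, and scored 58.83, 79.48, and 99.7. The widest peak of the run, from base 133765324 to 133771830 (6507 bp), was found in all 3 SRA lists with scores of 148.69, 138.38, and 116.05. The highest, from base 133805364 to 133806648 (1285 bp), scored 126, 164.93, and 180.54. The peak from base 133994809 to 133998851 (4043 bp) closed the run with scores of 105.64, 99.87, and 80.91. LacZ lists 1 and 2 had 3 wide peaks here, with scores from 41.3 to 42.9. The widest and the highest SRA peak of this run were the only 2 in either segment with a mean score above 100.

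The other 17 wide SRA peaks lay outside the segments. Their median score was 71.3, against 53.3 for the 132 in the segments, and it ranged up to 441.2. Of the 9 wide SRA peaks with a mean score above 100, 7 were among these 17. The 20 highest-scoring distinct SRA peaks included 10 wide ones. Score and width come from the same call on the same reads, so this is a description and was not tested. The wide SRA peaks as a whole had a median score of 54.1, against 43.5 for the 8509 peaks at or below 1000 bp.

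**Figure D3:**
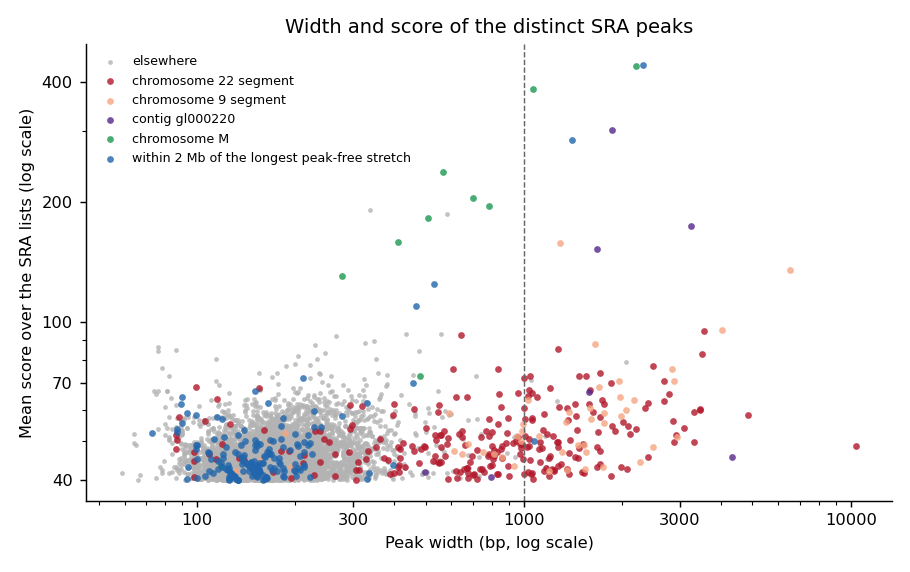
Width (bp, log scale) and mean score over the SRA lists that hold a peak (log scale) of the 8658 distinct SRA peaks, coloured by place; the dashed line marks 1000 bp. The wide peaks of the chromosome 22 and 9 segments have a median score of 53.3, against 43.5 for the peaks at or below 1000 bp, whereas those of chromosome M, contig gl000220, and the edges of peak-free stretches reach up to 441.2.

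Positions beside centromeres were found by the longest stretch of each chromosome without a peak in any list, and 3 wide SRA peaks lay within 2 Mb of one (2.01%, against 2.09% of all distinct SRA peaks). A share this close to the background is not a result about wide peaks, and the 3 are given for their scores. The peak on chromosome 6 from base 58777061 to 58779371 (2311 bp) had the highest mean score of all SRA peaks. It scored 420.88, 609.97, and 292.6 in SRA lists 1, 2, and 3. The peak on chromosome 1 from base 121484053 to 121485452 (1400 bp) scored 302.17, 355.26, and 198.36 and was the last before a stretch of 21.1 Mb with no peak. The peak on chromosome 19 from base 27731765 to 27732838 (1074 bp) was the first after such a stretch, and scored 43.24 and 56.72 in SRA lists 1 and 2. On 11 of 23 chromosomes the longest stretch did not hold the gap that the assembly is known to have at the centromere. With the known gaps, written from general knowledge and rounded to 0.1 Mb, 4 wide SRA peaks were within 2 Mb (2.68%, against 2.11% of all distinct SRA peaks). The added one lay on chromosome 10 from base 42395806 to 42396981, with a score of 45.11 in SRA list 2 alone. None of the 20698 peaks of the 6 lists lay inside a known gap (0 found).

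Contig gl000220, which is not placed on a chromosome in hg19 and is known to hold ribosomal DNA, had 5 wide peaks among its 7 SRA peaks (3.36% of wide SRA peaks, against 0.0809% of all distinct SRA peaks). They followed one another from base 117829 to 132854. The first, from base 117829 to 122148 (4320 bp), scored 41.95 and 49.62 in SRA lists 1 and 2 and was not in list 3. The second, from base 122170 to 125422 (3253 bp), scored 140.37, 201.39, and 180.29. The third, from base 126766 to 128622 (1857 bp), scored 291.93, 385.6, and 232.27 and was the highest of the contig. The fourth, from base 128665 to 130246, was weaker, with 62.9, 85.62, and 51.38. The fifth, from base 131178 to 132854, scored 143.99, 220.94, and 90.88. Scores thus differed several-fold between neighbouring peaks of the contig, and in all 4 peaks found in every SRA list, list 2 was the highest.

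Chromosome M, the mitochondrial genome, had 2 wide peaks among its 10 SRA peaks (1.34% of wide SRA peaks, against 0.116% of all distinct SRA peaks). The first, from base 1 to 1069, begins where the reference opens the circular molecule, and scored 394.23, 496.7, and 260.77. The second, from base 1953 to 4154 (2202 bp), scored 458.93, 617.14, and 235.26, and 617.14 was the highest score in any list. By the known order of genes, the molecule opens with the control region, which starts replication and transcription. It is followed by MT-RNR1 and MT-RNR2, which encode the ribosomal RNAs, and by MT-ND1, which encodes a subunit of respiratory complex I. Which mitochondrial reference the lists follow is not given in the sources used here, so the peaks were not assigned to single genes. No LacZ peak, wide or narrow, lay on chromosome M (0 of 5583 peaks, which allows a share of up to 0.0537%). For the 27 wide peaks of LacZ lists 1 and 2 alone, a count of 0 allows a share of up to 11.1%, so a share as small as that of the SRA lists was not detectable in them.

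The last 7 wide SRA peaks were scattered, and 3 of them were in 1 list only. On chromosome 9 the peak from base 131016741 to 131017794, upstream of the run, was found in all 3 SRA lists with scores of 68.14, 95.04, and 50.65, and that from base 123636215 to 123637337 in SRA list 3 with 48.98. Chromosome 1 had a peak from base 16970268 to 16971528 with scores of 66.25 and 59.79 in SRA lists 2 and 3, and one from base 234914327 to 234915496 with 43.2 in list 2. On chromosome 17 the peak from base 41400075 to 41401232 scored 41.91 and 61.42 in lists 2 and 3. The peaks on chromosome 10 and at the far side of the chromosome 9 run are those named above. Wide SRA peaks thus occurred on 9 of the 42 chromosomes and contigs that held an SRA peak, with 3 on chromosome 1 and 1 each on chromosomes 6, 10, 17, and 19.

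Wide peaks were held by all 3 SRA lists more often than narrow ones. Of 149 wide SRA peaks 57 were in all 3 lists (38.3%), 36 in 2 lists (24.2%), and 56 in 1 list (37.6%). Over all distinct SRA peaks the shares were 21.5, 31.6, and 46.9%. The share in all 3 lists was 32.4% for peaks of 1000 to 2000 bp, 52.0% for those of 2000 to 3000 bp, and 61.5% for the 13 above 3000 bp. It did not rise steadily with width below the threshold, where it was 20.5% up to 200 bp, 28.3% from 400 to 600 bp, 14.8% from 600 to 800 bp, and 15.4% from 800 to 1000 bp. Outside the segments 10 of 17 wide peaks were in all 3 lists, and inside them 47 of 132. As the lists share coordinates, these shares are a description with no test.

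Which SRA list scored highest differed between places. Scores of separate lists are not known to be comparable, so the orders given here are a description. Among the 10 wide peaks outside the segments that were in all 3 lists, SRA list 2 was the highest for 9 and list 3 the lowest for 8. The exception was the peak just behind the run on chromosome 9, where list 3 was the highest. Their medians were 218, 288.1, and 189.3 in lists 1, 2, and 3. Among the 47 wide peaks inside the segments, list 3 was the highest for 28, list 1 for 10, and list 2 for 9. Their medians were 58.4, 55.5, and 71.8. Of 1783 peaks at or below 1000 bp that lay outside the segments in all 3 lists, list 1 was the highest for 45.9%, list 2 for 28.7%, and list 3 for 25.5%. Of the 19 such peaks inside the segments, list 3 was the highest for 9, and lists 1 and 2 for 5 each, so list 3 was the most frequent highest list there for peaks of either width. SRA list 3 held 101 wide peaks in the segments, against 79 in list 1 and 78 in list 2. It also held more peaks of any width there, with 215 against 151 in each of the others, and the wide share was 47.0% in list 3, 52.3% in list 1, and 51.7% in list 2. Leaving out list 3 reduced the 132 wide peaks in the segments to 101, leaving out list 1 to 120, and leaving out list 2 to 122. The control that the authors used for each list is not given in the sources used here, and its part in these orders was not tested.

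**Figure D4:**
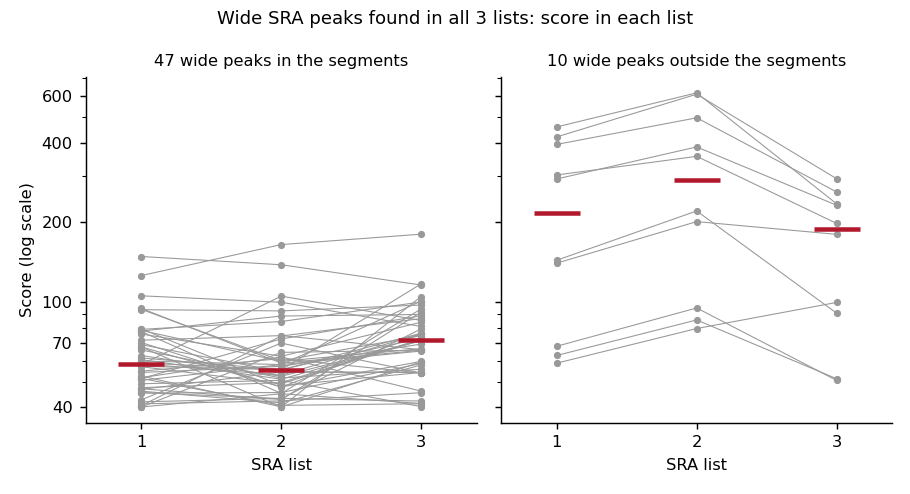
Score (log scale) of each wide peak found in all 3 SRA lists, in lists 1, 2, and 3, for 47 peaks in the segments (left) and 10 outside them (right); grey lines join the scores of 1 peak and red bars are medians. Outside the segments list 2 is the highest for 9 of 10 peaks, and inside them list 3 is the highest for 28 of 47. Scores of separate lists are not known to be comparable.

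Overlap between the probe sets was more frequent at wide peaks. Of 149 wide SRA peaks 15 shared at least 1 bp with a LacZ peak (10.1%, 95% Wilson interval 6.20 to 15.9%), against 0.901% of all distinct SRA peaks and 0.740% of those at or below 1000 bp. A longer peak meets another peak more easily. Place differs too, since 88.6% of wide SRA peaks lay in the segments, against 1.93% of those at or below 1000 bp. Inside the segments the peaks of LacZ lists 1 and 2 were also longer. These shares are therefore not on equal terms, and the parts of length and place were not tested. None of the 15 overlaps was with LacZ list 3, whereas without LacZ list 1 there were 9, and without LacZ list 2 there were 7. The 15 peaks gave 16 pairs, 12 in the segments and 4 outside. In 13 of 16 pairs the mean score of the SRA peak was above that of the LacZ peak, but scores of separate lists are not known to be comparable.

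The pairs outside the segments matched nearly base for base. On chromosome 6 the LacZ list 2 peak started at the same base as the SRA peak, 58777061, and ended 6 bases later. Its score was 62.38. On contig gl000220 the peak from base 126766 to 128622 met a peak of LacZ list 1 with a score of 68.13 and one of LacZ list 2 with 94.25, and the ends differed by at most 5 bases. The fifth peak of the contig met a LacZ list 2 peak with a score of 48.03, and the ends differed by at most 1 base. These 4 were all the wide peaks of LacZ lists 1 and 2 outside the segments, and each of them lay on a wide SRA peak.

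The pairs inside the segments matched less closely. The larger of the 2 end differences ranged from 35 to 1897 bases, with a median of 889.5. The closest pair lay on chromosome 22, where the SRA peak from base 22901272 to 22902985 (scores 75.77, 62.42, and 83.95) met the LacZ list 1 peak from base 22901274 to 22903020 (score 48.06). On the same chromosome the SRA peak from base 22269844 to 22271387, with a mean score of 73.1, met a LacZ list 2 peak of 829 bp with a score of 40.89. The most distant pair was the SRA peak from base 23499715 to 23503029, with scores of 57.01, 49.16, and 71.98, against the LacZ list 1 peak from base 23501612 to 23503819, with a score of 61.97. The highest-scoring wide LacZ peak in the segments, from base 21115162 to 21116458 of chromosome 22 (score 64.73), overlapped no SRA peak. Of 23 wide LacZ peaks in the segments, 11 lay on an SRA peak and 12 did not. Over both lists 15 of 27 wide LacZ peaks lay on an SRA peak (55.6%, against 1.40% of all distinct peaks of these lists), and 14 of 27 on a wide one (51.9%, against 0.302%). The wide LacZ peaks are longer, and 85.2% of them lay in the segments, against 1.63% of all distinct peaks of these lists. The overlap shares are therefore not on equal terms. The wide peaks of LacZ lists 1 and 2 also differed from each other, with 1 overlap, at contig gl000220. Their widths just above the threshold were 1013, 1019, and 1023 bp, and those just below it 948, 960, and 966 bp, all in the segments.

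LacZ list 3 showed a different pattern. Its 174 wide peaks lay on all 22 chromosomes that held a peak of this list, and 1 was in the segments (0.575%, against 0.345% of all its peaks), on chromosome 22 from base 22595886 to 22597931 with a score of 40.46. None of the 174 overlapped a wide SRA peak or a wide peak of LacZ lists 1 and 2 (0 of 174, which allows a share of up to 1.72%). The same held for all 290 peaks of the list, so this is not particular to its wide peaks. Outside the segments 173 of its 289 peaks were wide (59.9%). Chromosomes 6 and 1 had the most, with 33 and 32. On chromosome 6, 33 of 38 peaks were wide (86.8%), against 32 of 56 on chromosome 1 (57.1%). Peaks of this list were long throughout, with a narrowest of 545 bp. The wide ones had a median of 1428 bp and a median score of 45.4, and the 116 others had a median of 856.5 bp and a median score of 43.3. The 3 peaks just above the threshold (1004, 1010, and 1013 bp) and the 3 just below it (993, 994, and 997 bp) lay on 6 different chromosomes.

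The wide peaks of LacZ list 3 were mostly alone. With peaks up to 1 Mb apart counted as 1 group, 116 were single and 58 formed 24 groups, the largest with 5 peaks on chromosome 6 from base 34472243 to 35922288. By the same rule 140 of the 149 wide SRA peaks fell into 4 groups and 9 were single, and 93 had another wide peak within 10 kb. The widest of LacZ list 3 was on chromosome 7 from base 127633911 to 127640622 (6712 bp, score 51.43), and next came one from base 143189981 to 143195041 of the same chromosome (5061 bp, score 41.18). The 5 widest also included 2 on chromosome 1, from base 234746894 to 234750657 (3764 bp, score 42.51) and from base 234786512 to 234789666 (3155 bp, score 41.84). The highest score, 68.33, was that of a peak on chromosome 1 from base 21983179 to 21985025. It was followed by 66.47 on chromosome 7 from base 128048154 to 128051134, by 66.1 on chromosome 19 from base 6765996 to 6767517, by 65.35 on chromosome 2 from base 172957917 to 172959524, and by 65.1 on chromosome 1 from base 233072940 to 233074479.

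Few wide peaks of LacZ list 3 met another list. Of 174, 5 overlapped a peak of LacZ list 1 or 2 (2.87%, against 4.48% of all peaks of the list), and 5 others an SRA peak (2.87%, against 2.07%). Shares this close to the background are not a result about wide peaks, and the 10 peaks are given as a description. All 17 entries of the other lists that were met lay wholly inside the wide peak, and they were 104 to 267 bp wide. The same coordinates in several lists are counted here once per list. The part of width in this enclosure was not tested. On chromosome 9 the LacZ list 3 peak from base 102579801 to 102581292, with a score of 49.11, enclosed a peak of LacZ list 1 with 70.31 and one of LacZ list 2 with 102.7. It was the only one of these wide peaks that met both LacZ lists. On chromosome 7 the peak from base 150829933 to 150831309, with a score of 40.52, enclosed an SRA peak found in all 3 SRA lists with 43.33, 47.91, and 51.48. The other on a peak of all 3 SRA lists was on chromosome 1 from base 22289950 to 22291771, with a score of 40.49 against 47.85, 46.80, and 59.71. Chromosome 17 from base 46553079 to 46555213 (44.93) enclosed an SRA peak with 41.28 and 49.04 in SRA lists 2 and 3, and chromosome 6 from base 47476594 to 47478320 (40.52) one with 44.64 and 61.31 in the same lists. On chromosome 2 the wide peak from base 173014401 to 173015652 scored 55.2, and the SRA list 3 peak inside it 46.76. LacZ list 1 peaks with scores of 49.96, 66.25, and 44 lay inside wide peaks of chromosome 19 (base 5718505 to 5719681, score 54.9), chromosome 21 (base 45473022 to 45475170, score 41.92), and chromosome 7 (base 131412348 to 131413460, score 41.54). A LacZ list 2 peak with 54.69 lay inside one of chromosome 4 (base 57807156 to 57808322, score 45.29). Whether LacZ list 3 was called with other settings than the rest is not given in the sources used here, so its widths and scores are not known to be comparable with theirs.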

How the data were processed

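The authors aligned ChIRP-seq reads to hg19 and called peaks with MACS, giving 1 list for each SRA and LacZ sample. The submitters' processing notes also name CASAVA 1.8.2 and deepTools. The MACS version, the aligner, and the control of each list are not given in the sources used here. The deposited score starts at 40 in every list after rounding and its column is headed −log10 of a p-value. It was taken here to be 10-fold that quantity, as MACS writes it. The other deposited columns used are the start, counted from 0, and the end. Positions are printed here counted from 1. Read depth is unknown, and intervals and limits cover counting error only.

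An overlap needed 1 shared bp, and a limit for a count of 0 was taken as 3 counts of the total. Regions named are those with the highest score and greatest width of each set, those that overlap another list, and those nearest to the threshold. In the 2 segments peaks were too many to name each, and 1 region on chromosome Y was left out. No test was run, because width chose the members. The members, segments, and lists were chosen with earlier results of these data known, and known centromere gaps were added after seeing the data. The counting was tested on simulated peaks. Sequences are not shown, as no hg19 genome was used here. Alternatives were other widths, joined peaks, a score filter, other distances and overlaps, and each list left out. Counting was done in Python 3.11.15 with pandas 2.3.3 and numpy 2.4.6, intervals came from scipy 1.17.1, and plots from matplotlib 3.10.9.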

Additional observations from a re-analysis of the deposited data

How the results depend on the processing

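Of 59 values under alternatives, 44 stayed within 1.5 times the value reported, and 15 moved. With a threshold of 1500 bp there were 75 wide SRA peaks, 13 in LacZ lists 1 and 2, 77 in LacZ list 3, 36 in all 3 SRA lists, 67 in the segments, 1 near a peak-free stretch, and 1 on chromosome M, since fewer peaks are wider. The share of wide SRA peaks in the segments was 89.3% at 1500 bp and 88.8% at 800 bp. With scores at or above the median of each list there were 17 wide peaks in LacZ lists 1 and 2 and 99 in LacZ list 3, as fewer peaks entered. Within 5 Mb of a peak-free stretch there were 28 wide SRA peaks, because that distance on chromosome 22 reaches into the segment. With LacZ list 1 or 2 left out, wide peaks of this pair were 11 to 16. The overlaps of wide SRA peaks with LacZ were 7 to 15 with each LacZ list left out, and those of LacZ list 3 with lists 1 and 2 were 2 to 4. No paired analysis was possible because the results come from no test.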
